A study of Mus musculus with 17 samples.

Results

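TNF and death receptor genes were followed here in sorted mouse intestinal stem cells 3 h after gamma irradiation or without it. The set held 9 genes, chosen by name: the death domain receptors Fas, Tnfrsf10b, Tnfrsf1a and Tnfrsf21, and the receptors Eda2r, Tnfrsf12a, Tnfrsf1b, Ltbr and Cd40. The members were listed by gene name, with earlier results of these data known, and all 9 passed the filter on dim probes among the 27771 gene and transcript names tested. Of these, Eda2r did so only through the irradiated arrays. The study measured RNA on 17 Agilent 1-colour arrays from mice of the LGR5-GFPki genotype, which every group carried. The groups were non-irradiated LGR5hi cells (4 arrays), non-irradiated LGR5lo cells (5 arrays), LGR5hi cells after 12 Gy of gamma rays (4 arrays) and LGR5lo cells after 12 Gy (4 arrays). Each group held 2 arrays of females and 2 of males, with 1 further male array in the non-irradiated LGR5lo group. LGR5hi and LGR5lo name the sorted fractions with high and low LGR5, called gates below, and the labels call both intestinal stem cells. Animal ages and the number of animals behind each array were not given in the sources used here, so the p-values measure the spread between these arrays, which may be partly technical.

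TNF receptor superfamily members are cell surface receptors with cysteine-rich extracellular repeats that bind ligands of the TNF family. Receptors with a cytoplasmic death domain can assemble FADD, TRADD, RIPK1 and caspase-8 into complexes that start apoptosis or necroptosis, whereas receptors without one bind TRAF adaptors and signal mainly to NF-kB and MAP kinases. Fas, Tnfrsf10b and Eda2r are textbook p53 target genes, and p53-dependent death of crypt epithelial cells within hours of gamma irradiation is a well-known response of the small intestine.

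To show what lies upstream of these genes, the 250 bases before the RefSeq start (GRCm38.p6) were searched on both strands for 5 motifs. RefSeq promoters were matched for 7 of the 9 genes, all but Tnfrsf10b and Cd40. The 4 printed here are those of Fas, Eda2r and Tnfrsf12a, which were higher after irradiation in both sort gates, and of Ltbr, which was not called in either. Sequences run 5′ to 3′ on the strand of the gene, and capitals mark every motif match.
Fas, chr19:34290409-34290658, plus strand: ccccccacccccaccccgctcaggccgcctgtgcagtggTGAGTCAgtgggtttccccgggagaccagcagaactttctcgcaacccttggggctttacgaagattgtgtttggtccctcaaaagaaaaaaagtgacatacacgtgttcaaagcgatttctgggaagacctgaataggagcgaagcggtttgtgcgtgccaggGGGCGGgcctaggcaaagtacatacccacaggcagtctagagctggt
Eda2r, chrX:97377210-97377459, minus strand: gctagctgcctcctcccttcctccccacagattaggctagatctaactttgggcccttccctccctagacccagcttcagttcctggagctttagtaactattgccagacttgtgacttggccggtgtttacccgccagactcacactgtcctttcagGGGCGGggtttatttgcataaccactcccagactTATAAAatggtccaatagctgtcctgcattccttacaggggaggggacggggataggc
Tnfrsf12a, chr17:23677450-23677699, minus strand: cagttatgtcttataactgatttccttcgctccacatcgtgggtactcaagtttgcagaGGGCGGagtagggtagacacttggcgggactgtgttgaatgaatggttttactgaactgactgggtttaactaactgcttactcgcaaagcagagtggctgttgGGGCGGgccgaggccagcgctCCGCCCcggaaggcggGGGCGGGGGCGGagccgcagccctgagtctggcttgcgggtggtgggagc
Ltbr, chr6:125313886-125314135, minus strand: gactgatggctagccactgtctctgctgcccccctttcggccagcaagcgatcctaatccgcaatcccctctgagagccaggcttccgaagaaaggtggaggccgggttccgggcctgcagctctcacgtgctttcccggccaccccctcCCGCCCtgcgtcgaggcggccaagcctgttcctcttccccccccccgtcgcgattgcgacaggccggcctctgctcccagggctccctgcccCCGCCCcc
The Fas window held TGAGTCA, a match to the AP-1 motif TGANTCA, 211 to 205 bases before the start, and 1 GC box (GGGCGG) 47 to 42 bases before it. In the Eda2r window a GC box lay 92 to 87 bases before the start and a TATAAA 58 to 53 bases before it. The Tnfrsf12a window held 5 GC boxes and the Ltbr window 2. Tnfrsf1b had 2 GC boxes, Tnfrsf21 had 1, and the Tnfrsf1a window matched none of the 5 motifs. No match overlapped a match to another motif, and TGAGTCA matched TGANTCA on both strands, since N stands for any base. Neither the p53 half-site consensus nor the NF-kB site consensus occurred in any of the 7 windows. Among all 32851 RefSeq promoter windows of this length, 7.13% held the p53 half-site, 7.25% the NF-kB site, 6.75% TGANTCA, 32.7% GGGCGG and 12.4% TATAAA. These matches describe letters only, and sites outside the windows were not searched.

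Each level below is the log2 of the processed signal minus the 75th percentile of its own array, so 0 is the 75th percentile and levels of different probes cannot be set against each other. The 75th percentile intensity ran from 286 to 627 over the arrays, and 58.9% to 73.9% of spots were well above background except on non-irradiated LGR5lo replicate 2, with 95.6%. The slope fitted to the spike-in controls, from the file headers, was 0.791 on that array and 0 on non-irradiated LGR5lo replicate 4. On the other arrays it was 0.946 to 1.005, and both of these arrays stayed in the main fit. Non-irradiated LGR5hi replicate 1 was rebuilt from the deposited series table because its scanner file was only partly readable. The sort marker Lgr5 had mean levels of 4.23 and 1.09 in non-irradiated LGR5hi and LGR5lo cells, and the epithelial marker Epcam had group means of 4.55 to 4.80. Of 10 epithelial and stem cell markers 2 were called higher and 4 lower after irradiation in LGR5hi, and 1 higher and 4 lower in LGR5lo, with the keratin gene Krt18 higher in both (1.21 and 0.73). Over 4 Paneth cell markers tested, of which 0 were called, the median level went from 5.69 to 6.10 with irradiation in LGR5hi and from 6.27 to 7.24 in LGR5lo, and their part in the receptor differences was not tested. Over 15 leukocyte markers tested of 16 listed, the mean level ran from -1.88 to -1.48 in non-irradiated LGR5hi arrays, from -1.42 to -0.34 in non-irradiated LGR5lo, from -1.49 to -0.90 in irradiated LGR5hi and from -1.23 to -1.02 in irradiated LGR5lo. The pan-leukocyte gene Ptprc averaged -4.11, -2.93, -3.67 and -3.81 in the same order. The T cell gene Cd3g was well above background on 3 of 5 non-irradiated LGR5lo arrays and on no array of the other groups with a readable flag. By contrast Cd3e was well above background on every array, with group means of 2.17 to 2.43. So was Cd8a on every array with a readable flag, and Cd3d on 1 of 4, 3 of 5, 0 of 4 and 2 of 4 arrays in the same order. Itgam and Csf1r, also on the leukocyte list, were well above background on every array with a readable flag, with group means of 5.46 to 6.12 and 2.47 to 2.81. The B cell gene Cd79b went from -1.06 to 0.35 with irradiation in LGR5hi and from -0.08 to 0.79 in LGR5lo, and the monocyte gene Cd14 from 1.68 to 2.81 and from 0.93 to 2.17, all 4 differences called. In these bulk samples, fewer cells of a type and less RNA per cell cannot be told apart.

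Irradiation raised most of the receptor genes in both gates. In LGR5hi cells 7 of the 9 were called higher and 0 lower, against 6.18% of all names called higher and 7.28% called lower (13.5% either way; limma, Benjamini-Hochberg adjusted p under 0.05). In LGR5lo cells 6 of the 9 were called higher and 0 lower, against 4.47% and 3.02% (7.49% either way). At an unadjusted p under 0.05 no receptor gene was lower in either gate, where 6449 names in LGR5hi and 6690 in LGR5lo passed either way. How many of those names were lower was not computed, so this result has no reference. The median difference of the 9 genes was 2.37 on the log2 scale in LGR5hi and 2.10 in LGR5lo, beside -0.02 and -0.13 over all names. Irradiated and non-irradiated arrays did not overlap for 7 genes in LGR5hi and 5 in LGR5lo. The share of all names without overlap was not computed for any comparison. These counts, and the overlaps given below for single genes, therefore have no reference. Fas, Tnfrsf10b, Eda2r, Tnfrsf1a, Tnfrsf12a and Cd40 were called in both gates, Tnfrsf1b in LGR5hi, and Tnfrsf21 and Ltbr in neither. Eda2r passed the filter only through the irradiated arrays, where it is high, so its place among the called genes depends on that filter. Centring each array on its median instead moved the median of all names by 0.53 in LGR5lo, and the share of calls that were higher went from 59.7% to 92.5% there and from 45.9% to 64.8% in LGR5hi. Under that centring 6 receptor genes were called in LGR5hi, without Tnfrsf1a, and 7 in LGR5lo, with Tnfrsf1b.

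**Figure D1:**
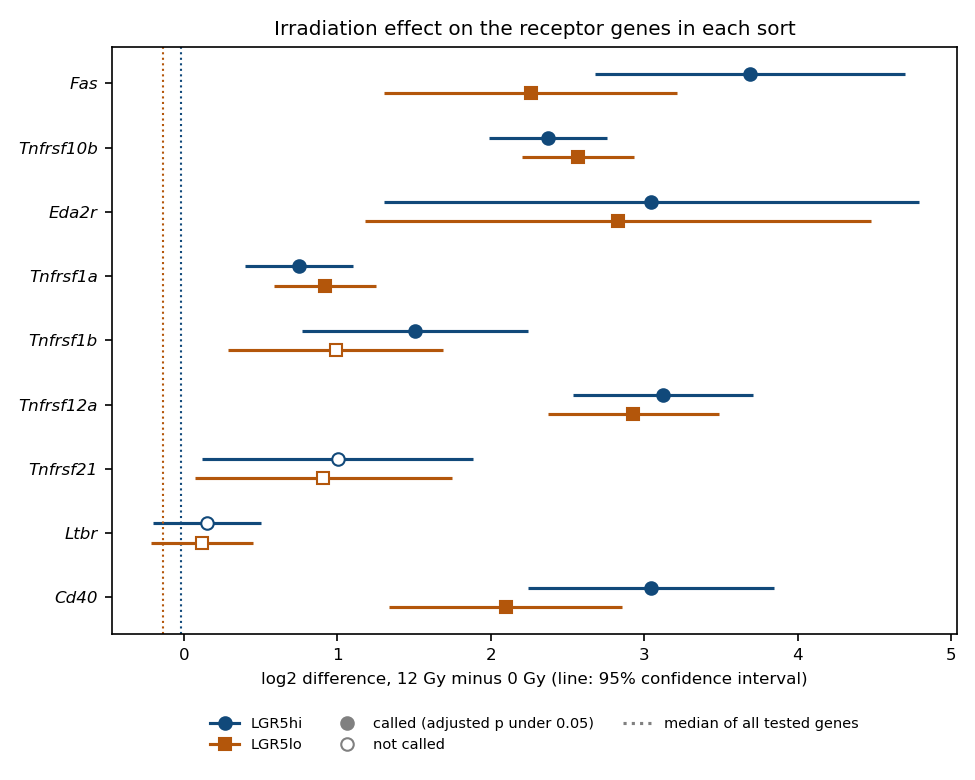
Difference between irradiated and non-irradiated cells for each of the 9 receptor genes (log2 scale) in LGR5hi and LGR5lo, with 95% confidence intervals from the limma fit. Filled points were called at an adjusted p under 0.05, the dotted lines mark the median of all 27771 names, and the intervals of Ltbr span 0 in both gates.

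Fas encodes the receptor for Fas ligand, the prototype death receptor, and its probe lies at chr19:34402164-34402223 (mm9, plus strand). In LGR5hi cells its level was -2.73, -2.03, -0.87 and -3.81 in non-irradiated replicates 1 to 4 (mean -2.36 ± 1.23 SD, n = 4) and 0.84, 2.004, 1.25 and 1.23 after 12 Gy (1.33 ± 0.49, n = 4). In LGR5lo cells it was -1.51, -1.79, -0.88, -0.48 and -0.87 without irradiation (-1.11 ± 0.53, n = 5) and 1.05, 1.52, 1.23 and 0.82 after it (1.15 ± 0.29, n = 4). Every irradiated array was above every non-irradiated array in both gates, and the widest spread was among the non-irradiated LGR5hi arrays, where replicate 3 was highest and replicate 4 lowest. The difference was 3.69 ± 0.47 (SE, log2; 12.9-fold; adjusted p = 6.19e-05) in LGR5hi and 2.26 ± 0.45 (4.79-fold; adjusted p = 0.00538) in LGR5lo. Within the arrays of slide 1 and of slide 2 it was 3.80 and 3.58 in LGR5hi, and 2.93 and 1.70 in LGR5lo. After 12 Gy the group means of the gates differed by 0.18 (adjusted p = 0.931), while without irradiation LGR5hi was lower by 1.25 ± 0.45 in the fit, a difference that did not pass the test (adjusted p = 0.0955) unless non-irradiated LGR5hi replicate 3 was left out (-1.75, adjusted p = 0.011). The closest profiles, by root mean square difference of levels centred on each gene's own mean over the 17 arrays, were those of Fam102b (0.546), Aldh4a1 (0.561) and Serpinb5 (0.565).

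Tnfrsf10b encodes the mouse death receptor for TRAIL, the product of Tnfsf10, and its probe lies at chr14:70184141-70184200 (plus strand). Levels in LGR5hi were 0.84, 1.11, 0.71 and 0.74 without irradiation (0.85 ± 0.18, n = 4) and 3.05, 3.71, 3.06 and 3.07 after 12 Gy (3.22 ± 0.32, n = 4). Those in LGR5lo were 0.43, -0.16, 0.48, 0.28 and 0.19 without irradiation (0.24 ± 0.25, n = 5) and 2.64, 2.91, 2.77 and 2.93 after it (2.81 ± 0.14, n = 4). The arms were far apart in both gates, and within each arm every LGR5hi array was above every LGR5lo array. Irradiation raised Tnfrsf10b by 2.37 ± 0.18 (5.18-fold; adjusted p = 3.36e-07) in LGR5hi and by 2.57 ± 0.17 (5.92-fold; adjusted p = 1.70e-07) in LGR5lo. Slides 1 and 2 gave 2.41 and 2.34 in LGR5hi and 2.64 and 2.47 in LGR5lo. It was the 1 receptor gene called between the gates: without irradiation LGR5hi exceeded LGR5lo by 0.61 ± 0.17 (adjusted p = 0.0360), where 4.62% of all names were called higher and 4.93% lower (9.55% either way). With LGR5hi and LGR5lo arrays of the same number paired within each arm, that difference was 0.59 and no longer passed (adjusted p = 0.10). In all, the call was lost in 14 of 30 alternatives, with adjusted p up to 0.18 and the direction kept. Among them were median centring, normexp, no filter, the slide and replicate blocks, only the groups compared, and several single arrays left out. Slide 1 alone gave 0.84 and slide 2 alone 0.35 for the same contrast. Abhd4 (0.208), Kazn (0.221) and Pidd1 (0.241) had the profiles nearest to Tnfrsf10b.

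Tnfrsf1a encodes the main receptor for soluble TNF, which signals through TRADD and RIPK1, and its probe lies at chr6:125312376-125312435 (plus strand). LGR5hi levels were 3.54, 3.54, 3.48 and 3.54 without irradiation (3.53 ± 0.03, n = 4) and 4.29, 4.39, 4.38 and 4.05 after it (4.28 ± 0.16, n = 4). LGR5lo levels were 3.91, 3.11, 3.77, 3.79 and 3.62 (3.64 ± 0.31, n = 5) and 4.71, 4.52, 4.66 and 4.34 (4.56 ± 0.17, n = 4), in the same order. The arms did not overlap in either gate, and the lowest LGR5lo value came from non-irradiated replicate 2. The rise was 0.75 ± 0.16 (1.68-fold; adjusted p = 0.00533) in LGR5hi and 0.92 ± 0.16 (1.89-fold; adjusted p = 0.00160) in LGR5lo, with 0.80 and 0.70 on slides 1 and 2 in LGR5hi and 1.11 and 0.72 in LGR5lo. A second probe, at chr6:125311922-125311981, gave 0.79 ± 0.22 (adjusted p = 0.0245) and 0.78 ± 0.20 (adjusted p = 0.0330). On median-centred arrays the LGR5hi value was 0.73 and lost its call (adjusted p = 0.57), and the LGR5lo value was 1.45 (adjusted p = 0.049). The nearest profiles were Timm17a (0.102), Rnf14 (0.142) and Cdk18 (0.144).

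Tnfrsf21 encodes death receptor 6, best known from neurons and lymphocytes, and its probe lies at chr17:43225326-43225385 (plus strand). Its LGR5hi levels were -3.34, -3.17, -2.32 and -1.90 without irradiation (-2.68 ± 0.69, n = 4) and -1.71, -2.53, -1.05 and -1.44 after 12 Gy (-1.68 ± 0.62, n = 4). Its LGR5lo levels were -2.52, -2.39, -1.82, -0.95 and -1.03 (-1.74 ± 0.74, n = 5) and -0.80, -1.14, -0.40 and -0.998 (-0.84 ± 0.32, n = 4). The arms overlapped in both gates, and in the non-irradiated groups the arrays of slide 1, replicates 1 and 2, were lower than those of the other slides. The difference was 1.002 ± 0.42 (adjusted p = 0.147) in LGR5hi and 0.91 ± 0.39 (adjusted p = 0.177) in LGR5lo, neither past the threshold. With the slide as a block it passed in both, at 1.002 (adjusted p = 0.019) and 1.09 (adjusted p = 0.022), which brought the counts to 8 and 7 receptor genes. Slides 1 and 2 alone gave 1.14 and 0.87 in LGR5hi and 1.49 and 0.68 in LGR5lo. LGR5hi lay below LGR5lo by 0.94 ± 0.39 without irradiation (adjusted p = 0.151) and by 0.85 ± 0.42 after it (adjusted p = 0.308). With same-numbered arrays paired within each arm both differences passed, at -0.76 (adjusted p = 0.031) and -0.85 (adjusted p = 0.020). Ccdc71l (0.322), Rflnb (0.329) and 1810055G02Rik (0.350) followed Tnfrsf21 most closely.

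**Figure D2:**
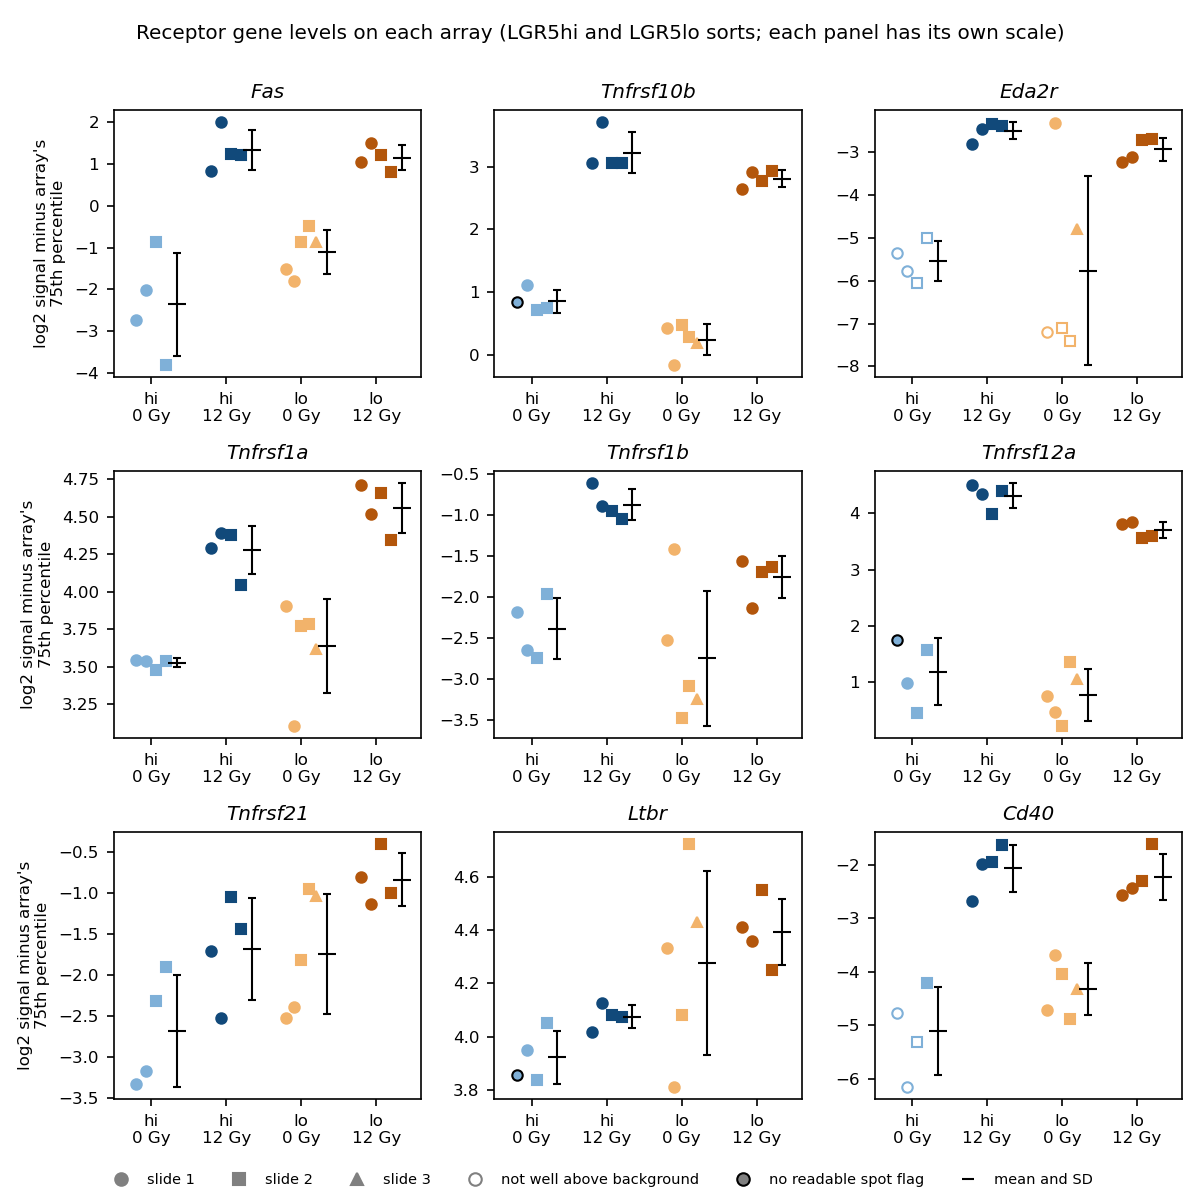
Level of each receptor gene on every array (log2 processed signal minus the 75th percentile of the array), in 4 groups, with marker shape giving the slide and bars the group mean and SD. Open points were not well above background, black-edged points had no readable flag, and the levels of Tnfrsf10b after 12 Gy (2.64 to 3.71) lie above all those without irradiation (-0.16 to 1.11).

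Eda2r encodes the receptor for ectodysplasin A2, a TRAF-binding receptor without a death domain, and the tested probe lies at chrX:94534281-94534340 (minus strand). Without irradiation LGR5hi arrays read -5.36, -5.77, -6.06 and -4.99 (-5.54 ± 0.47, n = 4), with 0 of 4 well above background, and after 12 Gy they read -2.79, -2.45, -2.35 and -2.40 (-2.50 ± 0.20, n = 4). LGR5lo arrays read -7.20, -2.32, -7.10, -7.41 and -4.78 without irradiation (-5.76 ± 2.20, n = 5), with 2 of 5 well above background, and -3.23, -3.10, -2.71 and -2.68 after it (-2.93 ± 0.28, n = 4). All 8 irradiated arrays were well above background and tightly grouped, whereas non-irradiated LGR5lo replicate 2, the array with the most spots above background, stood above all irradiated LGR5lo arrays. Because the non-irradiated LGR5hi signal is only a bound, the LGR5hi rise is given as at least 6.68-fold, the mean of irradiated arrays over the higher, on each dim array, of the probe's own value and the lowest signal well above background there (fit 3.05 ± 0.82; adjusted p = 0.0197). The LGR5lo difference was 2.83 ± 0.78 (adjusted p = 0.0369) and is given with no fold, since only 2 of the 5 non-irradiated arrays measured the probe. A second probe at chrX:94531320-94531379 gave a rise of at least 10.9-fold in LGR5hi (fit 5.09 ± 0.54; adjusted p = 1.17e-05) and a fitted 3.94 ± 0.51 (adjusted p = 0.000175) in LGR5lo, where 1 of 5 non-irradiated arrays was well above background, from -6.76, -3.84, -6.88, -6.96 and -7.38 without irradiation to -2.85, -2.21, -2.24 and -2.39 after it. On the tested probe the call was lost in LGR5hi without non-irradiated LGR5hi replicate 2 (2.97, adjusted p = 0.051) or replicate 3 (2.87, adjusted p = 0.058), and in LGR5lo it was lost in 9 of the alternatives. These included the removal of any 1 irradiated LGR5lo array, or of non-irradiated LGR5lo replicate 1, 3 or 4, with adjusted p from 0.067 to 0.10. The LGR5lo call was also lost in the fit to only the LGR5lo arrays (adjusted p = 0.20) and with no filter on dim probes (adjusted p = 0.054). Slides 1 and 2 gave 2.94 and 3.15 in LGR5hi but 1.59 and 4.56 in LGR5lo. Background correction with normexp reduced the values to 1.51 (adjusted p = 0.00013) and 1.10 (adjusted p = 0.0012), still called. Col4a1 (0.659), Prl2c1 (0.727) and Zmynd15 (0.748) had the nearest profiles, the most distant of the nearest ones among the 9 receptor genes.

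Tnfrsf12a encodes Fn14, the receptor for TWEAK, and its probe lies at chr17:23812746-23812805 (minus strand). The LGR5hi arrays read 1.75, 0.99, 0.45 and 1.57 without irradiation (1.19 ± 0.59, n = 4) and 4.51, 4.34, 3.99 and 4.40 after it (4.31 ± 0.22, n = 4). The LGR5lo arrays read 0.76, 0.46, 0.22, 1.36 and 1.06 (0.77 ± 0.45, n = 5) and 3.81, 3.85, 3.57 and 3.59 (3.70 ± 0.14, n = 4). The lowest irradiated array stood more than 2 log2 units above the highest non-irradiated one in each gate, and after 12 Gy all LGR5hi arrays were above all LGR5lo arrays. Irradiation raised Tnfrsf12a by 3.12 ± 0.28 (8.71-fold; adjusted p = 1.73e-06) in LGR5hi and 2.93 ± 0.26 (7.62-fold; adjusted p = 3.72e-06) in LGR5lo. On slides 1 and 2 alone it was 3.06 and 3.19, and 3.22 and 2.79. The gates differed by 0.61 ± 0.28 after irradiation, which did not pass the test over all arrays (adjusted p = 0.260) and did when only the irradiated groups were fitted (adjusted p = 0.032). Its window of GC boxes is shown above, and its nearest profiles were Mgmt (0.393), Dcxr (0.436) and Hbegf (0.436), the last an EGF receptor ligand.

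Tnfrsf1b encodes the second TNF receptor, which has no death domain and binds TRAF2, and its probe lies at chr4:144802359-144802418 (minus strand). Values in LGR5hi were -2.19, -2.65, -2.75 and -1.96 without irradiation (-2.38 ± 0.37, n = 4) and -0.61, -0.89, -0.96 and -1.05 after it (-0.88 ± 0.19, n = 4). Values in LGR5lo were -2.52, -1.41, -3.47, -3.08 and -3.24 (-2.75 ± 0.82, n = 5) and -1.56, -2.14, -1.70 and -1.64 (-1.76 ± 0.26, n = 4). The arms were apart in LGR5hi, while in LGR5lo non-irradiated replicate 2 stood above all irradiated arrays. The rise in LGR5hi was 1.51 ± 0.35 (2.84-fold; adjusted p = 0.00742), and the LGR5lo difference of 0.99 ± 0.33 did not pass (adjusted p = 0.0851). Without non-irradiated LGR5lo replicate 2 the LGR5lo value was 1.32 and passed (adjusted p = 0.0013), as it did after quantile normalization (1.40, adjusted p = 0.00091) and median centring (1.52, adjusted p = 0.0038). Slide 1, which holds that array, gave 0.12 in LGR5lo and slide 2 gave 1.61, with 1.66 and 1.35 in LGR5hi. After 12 Gy every LGR5hi array was above every LGR5lo array (0.88 ± 0.35; adjusted p = 0.178), and that contrast passed when only the irradiated groups were fitted (adjusted p = 0.012) or without non-irradiated LGR5lo replicate 2 (adjusted p = 0.019). Dusp9 (0.283), Cavin3 (0.311) and Gspt2 (0.320) were nearest in profile.

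Ltbr encodes the lymphotoxin beta receptor, which acts through TRAF3 and the non-canonical NF-kB route, and its probe lies at chr6:125256614-125256673 (minus strand). LGR5hi arrays stood at 3.85, 3.95, 3.83 and 4.05 without irradiation (3.92 ± 0.10, n = 4) and 4.02, 4.12, 4.08 and 4.07 after it (4.07 ± 0.04, n = 4). LGR5lo arrays stood at 4.33, 3.81, 4.08, 4.72 and 4.43 (4.28 ± 0.35, n = 5) and 4.41, 4.36, 4.55 and 4.25 (4.39 ± 0.13, n = 4). The arms overlapped in both gates. Ltbr was the receptor gene with the smallest differences, 0.15 ± 0.17 in LGR5hi (adjusted p = 0.706; 95% interval -0.20 to 0.50) and 0.12 ± 0.16 in LGR5lo (adjusted p = 0.643; -0.22 to 0.45). Slides 1 and 2 gave 0.17 and 0.13, and 0.31 and -0.00. LGR5hi was below LGR5lo by 0.35 ± 0.16 without irradiation (adjusted p = 0.175) and by 0.32 ± 0.17 after it (adjusted p = 0.341), and in the irradiated groups no arrays overlapped. The first of these passed after quantile normalization (-0.51, adjusted p = 0.025) and without non-irradiated LGR5lo replicate 2 (-0.47, adjusted p = 0.034), and turned to 0.12 under median centring. Sigirr, an inhibitor of interleukin-1 receptor signalling, had the nearest profile (0.0582), followed by Grk6 (0.111).

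Cd40 encodes the receptor for CD40 ligand, best known on B cells and other antigen-presenting cells, and its probe lies at chr2:164897085-164897144 (plus strand). The level in LGR5hi was -4.77, -6.15, -5.30 and -4.21 without irradiation (-5.11 ± 0.83, n = 4), well above background on 1 of 4 arrays, and -2.68, -1.99, -1.95 and -1.64 after it (-2.06 ± 0.44, n = 4). The level in LGR5lo was -4.71, -3.69, -4.05, -4.88 and -4.33 (-4.33 ± 0.48, n = 5) and -2.57, -2.44, -2.30 and -1.62 (-2.23 ± 0.42, n = 4). No irradiated array overlapped a non-irradiated one in either gate, and the 8 irradiated arrays of both gates were intermingled. The fitted rise of Cd40 was 3.04 ± 0.38 (adjusted p = 4.36e-05) in LGR5hi, given with no fold since 1 of 4 non-irradiated arrays measured it, and 2.10 ± 0.36 (4.28-fold; adjusted p = 0.00164) in LGR5lo. Slides 1 and 2 gave 3.12 and 2.96, and 1.70 and 2.50. These are dim signals, and with normexp background correction the values fell to 1.11 (adjusted p = 0.0049) and 0.73 (adjusted p = 0.044), both still called. The mean level of the leukocyte markers was higher after irradiation in LGR5hi (medians -1.56 and -1.18) and lower in LGR5lo (medians -0.41 and -1.17), with 2 markers, Cd14 and Cd79b, called higher in both gates and 1, the T cell gene Cd8a, lower in LGR5lo. Their part in the Cd40 difference was not tested. Nxn (0.572), Dusp14 (0.572) and Ccdc88b (0.588) were nearest in profile.

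Whether the receptor genes responded differently in the 2 gates was tested as the LGR5hi difference minus the LGR5lo difference. For 0 of the 9 genes did this pass, where 0.0396% of all names were called (0.036% higher, 0.0036% lower). At an unadjusted p under 0.05 it held for Fas alone, and for 1889 of all 27771 names. Fas had 1.43 ± 0.65 (adjusted p = 0.715; 95% interval 0.04 to 2.82) and Cd40 0.94 ± 0.52 (adjusted p = 0.715; -0.16 to 2.05), in both cases with a lower non-irradiated level in LGR5hi and irradiated means within 0.18 of each other. For Tnfrsf12a and Tnfrsf10b the values were 0.19 ± 0.38 (-0.62 to 1.003) and -0.19 ± 0.25 (-0.72 to 0.34). Tnfrsf1b had 0.52 ± 0.48, Eda2r 0.22 ± 1.13, Tnfrsf1a -0.17 ± 0.23, Tnfrsf21 0.09 ± 0.57 and Ltbr 0.03 ± 0.23, none with an unadjusted p under 0.05. These intervals are wide, and the median standard error of the contrast over all names was 0.36 against 0.26 for irradiation in LGR5hi. After 12 Gy 0 of the 9 genes were called between the gates, where 2.21% of all names were called higher in LGR5hi and 4.09% lower (6.31% either way). At an unadjusted p under 0.05 there were 3, Tnfrsf1b, Tnfrsf12a and Tnfrsf10b, each higher in LGR5hi, where 4973 of 27771 names passed either way. Among the leukocyte markers 1 was called higher and 4 lower in LGR5hi than in LGR5lo without irradiation, where 4.62% and 4.93% of all names were, and 0 after it, where 2.21% and 4.09% were. Their part in the gate differences was not tested.

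**Figure D3:**
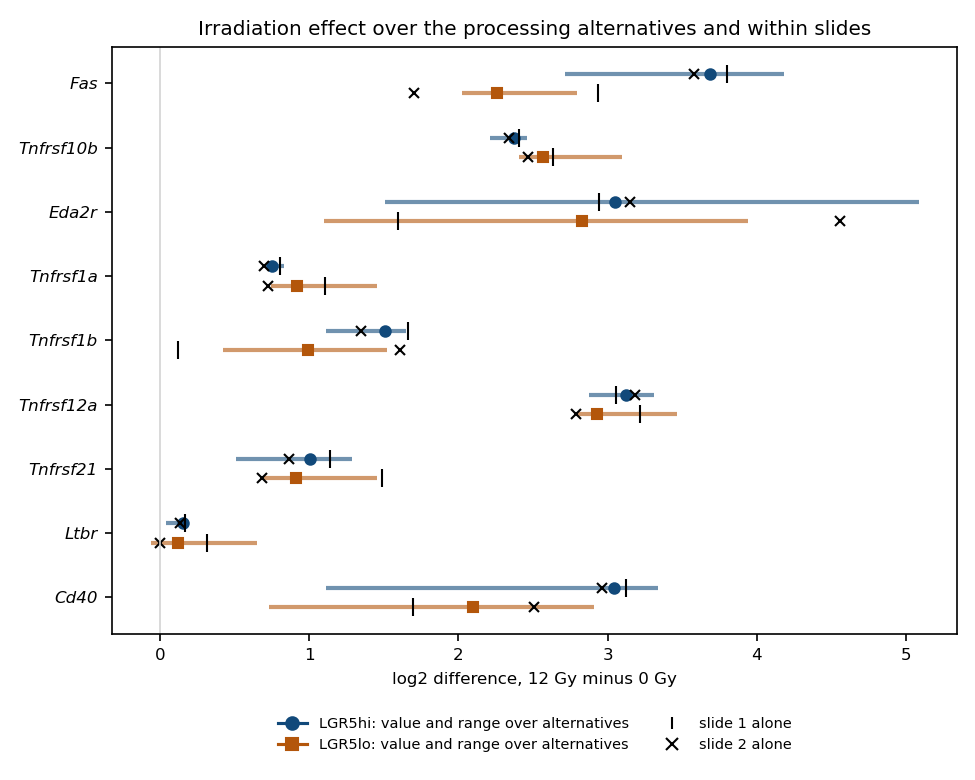
Irradiation difference of each receptor gene (log2 scale) in LGR5hi and LGR5lo, with lines spanning the lowest and highest value over all alternative settings and left-out arrays, and with slide 1 (bar mark) and slide 2 (cross) alone. The ranges of Tnfrsf10b and Tnfrsf12a stay well above 0 in both gates, and that of Ltbr in LGR5lo spans it.

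Of 19 other receptor genes of the superfamily 16 were tested, with 4 higher and 1 lower in LGR5hi, 3 higher and 1 lower in LGR5lo, and medians of 0.20 and -0.03. The shares of all names were 6.18% higher and 7.28% lower in LGR5hi and 4.47% and 3.02% in LGR5lo. Edar, Tnfrsf17 and Tnfrsf26 did not pass the filter on dim probes. Tnfrsf18, the T cell costimulatory receptor GITR, had the largest rise, with mean levels of -1.59 ± 0.22 and -1.31 ± 0.19 in non-irradiated LGR5hi (n = 4) and LGR5lo (n = 5) cells and 4.18 ± 0.56 and 3.52 ± 0.66 after 12 Gy (n = 4 each). That is 5.77 ± 0.30 (adjusted p = 6.18e-09) in LGR5hi and 4.83 ± 0.29 (adjusted p = 3.87e-08) in LGR5lo, beyond any of the 9 receptor genes, and the part of the leukocyte levels given above was not tested. Among decoy receptors, Tnfrsf11b (osteoprotegerin) rose by 2.53 ± 0.39 and 2.14 ± 0.37, and Tnfrsf23, a decoy TRAIL receptor, by 2.31 ± 0.27 and 0.98 ± 0.26. The LGR5lo value of Tnfrsf23 was -0.03 (adjusted p = 0.96) when its probes were averaged, and the LGR5hi value of Tnfrsf11b just missed the threshold after quantile normalization (2.41, adjusted p = 0.053). Relt rose in LGR5hi (1.47 ± 0.32; adjusted p = 0.00501) and had 0.27 in LGR5lo (adjusted p = 0.582), while the difference of these effects, 1.20 ± 0.44, did not pass (adjusted p = 0.634). Tnfrsf25, a death receptor for the product of Tnfsf15, fell by 2.40 in LGR5hi (± 0.27; adjusted p = 1.94e-05) and by 1.27 in LGR5lo (± 0.26; adjusted p = 0.00649), the latter not called under median centring (-0.73, adjusted p = 0.29). Normexp correction made several of these dim signals smaller, with 1.29 for Tnfrsf23 and 0.65 for Relt in LGR5hi and 1.32 for Tnfrsf11b in LGR5lo, all still called, and 0.58 for Tnfrsf23 in LGR5lo, no longer called (adjusted p = 0.12).

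Among the ligands, 18 genes were listed and 11 tested. Fasl, Cd40lg, Tnfsf8, Tnfsf11, Tnfsf18 and Cd70 were on the array but did not pass the filter on dim probes, and Tnfsf13 had no matching name. In LGR5hi 4 ligands were higher and 2 lower, in LGR5lo 3 were higher and 1 lower, against 13.5% and 7.49% of all names called either way, and the medians were 0.14 and -0.27. Tnfsf10 fell while its receptor gene Tnfrsf10b rose: mean levels of Tnfsf10 were 2.87 ± 0.21 and 1.58 ± 0.55 in non-irradiated LGR5hi (n = 4) and LGR5lo (n = 5) cells and 0.25 ± 0.41 and -0.34 ± 0.39 after irradiation (n = 4 each). The decrease was 2.62 ± 0.29 on the log2 scale in LGR5hi (adjusted p = 1.43e-05) and 1.92 ± 0.27 in LGR5lo (adjusted p = 0.000357), and the LGR5lo call was lost under median centring (-1.38, adjusted p = 0.091). Tnf, the ligand of Tnfrsf1a and Tnfrsf1b, rose by 2.14 ± 0.35 (adjusted p = 0.000583) and 2.16 ± 0.33 (adjusted p = 0.000719). Its mean levels were -1.23 ± 0.29 and -2.04 ± 0.17 before and 0.90 ± 0.75 and 0.12 ± 0.70 after irradiation in LGR5hi and LGR5lo. Tnfsf15, the ligand of Tnfrsf25, rose by 2.02 ± 0.24 and 1.27 ± 0.23, the first being 1.28 after normexp correction. Tnfsf4 was well above background on no non-irradiated LGR5hi array with a readable flag and on only 2 of 4 irradiated ones. Its fitted LGR5hi difference of 3.12 ± 0.74 (adjusted p = 0.00884) is therefore given with no fold. The LGR5lo difference was 2.62 ± 0.70 (adjusted p = 0.0318), with 1 of 5 non-irradiated arrays well above background. Neither difference was called after normexp correction (0.82 and 0.35). Tnfsf13b, the B cell survival factor BAFF, was lower in LGR5hi (-2.57 ± 0.78; adjusted p = 0.0388) and Ltb, a ligand of Ltbr, higher (1.16 ± 0.35; adjusted p = 0.0402), each close to the threshold and lost in several alternatives. In LGR5lo their differences were -0.84 (adjusted p = 0.472) and 0.67 (adjusted p = 0.234), and Tnfsf13b passed there without non-irradiated LGR5lo replicate 4 (-1.75, adjusted p = 0.0018). Tnfsf12, which encodes TWEAK, the ligand for Tnfrsf12a, had differences of 0.14 and -0.27 (adjusted p = 0.87 and 0.54), a gene outside the naming rule and chosen after its values were seen.

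**Figure D4:**
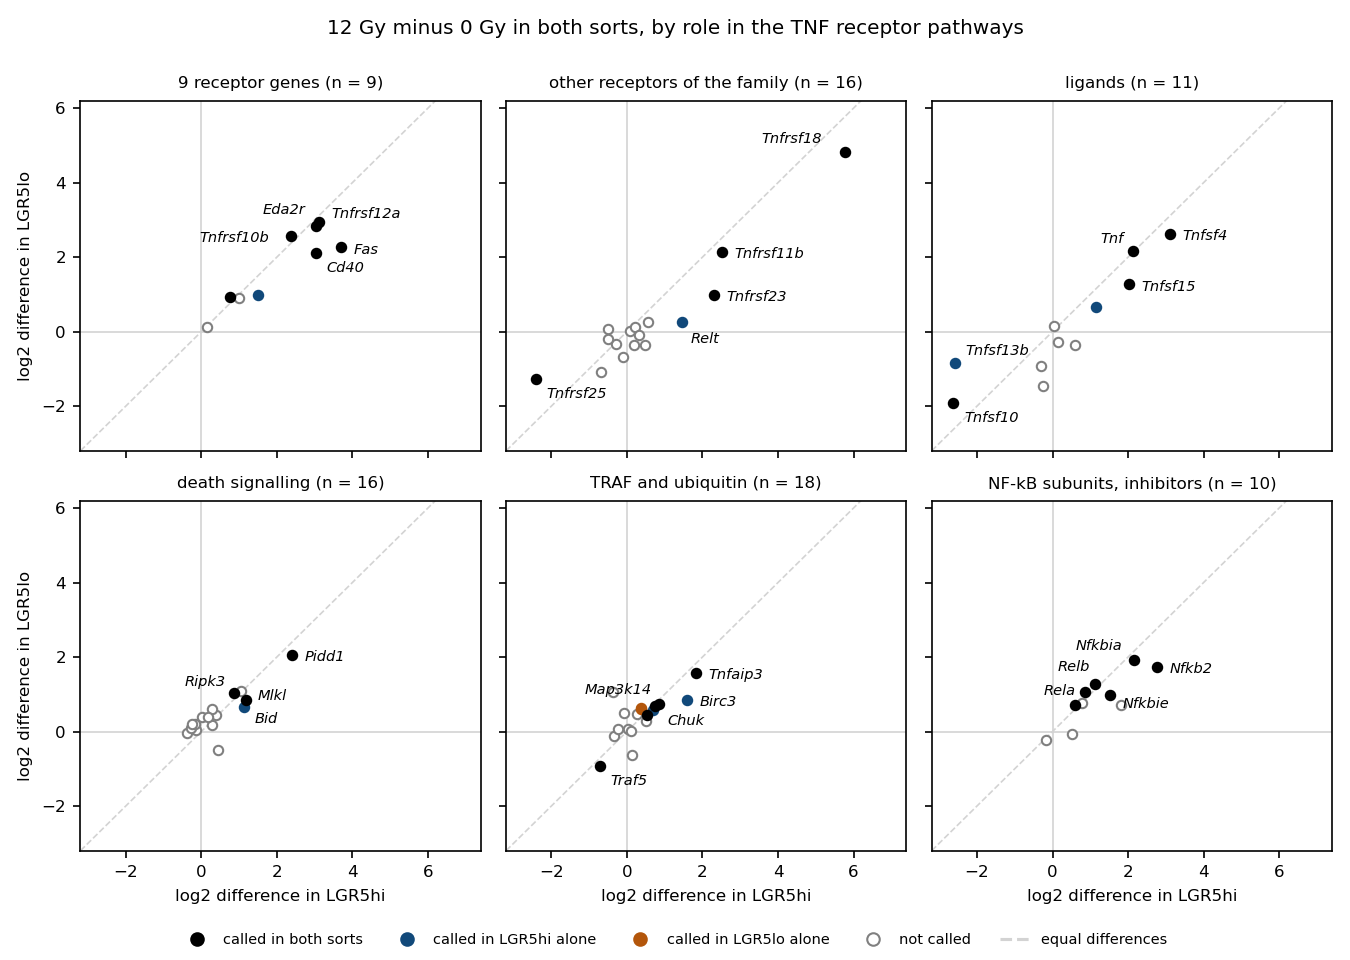
Irradiation difference in LGR5lo against that in LGR5hi (log2 scale) for the tested genes of the 6 pathway lists, with black points called in both gates, blue in LGR5hi alone, orange in LGR5lo alone and white in neither. The axes use different arrays, 8 of LGR5hi and 9 of LGR5lo, and share 1 estimate of the spread. Tnfsf10 and Tnfrsf25 lie in the lower left of their panels.

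Of 16 death signalling genes downstream of the receptors, all tested, 4 were higher in LGR5hi and 3 in LGR5lo and 0 lower. Of all names 6.18% and 4.47% were called higher, and 7.28% and 3.02% lower. The list had medians of 0.27 and 0.39, and 1 and 2 were called higher under median centring. At an unadjusted p under 0.05, 0 of these genes were lower in limma, where 6449 names in LGR5hi and 6690 in LGR5lo passed either way, with the number lower not computed. Pidd1, a death domain scaffold protein and p53 target, rose by 2.41 ± 0.18 (adjusted p = 3.18e-07) and 2.05 ± 0.17 (adjusted p = 1.96e-06). The necroptosis effector Mlkl rose by 1.17 ± 0.19 and 0.85 ± 0.18, and its kinase Ripk3 by 0.87 ± 0.21 and 1.04 ± 0.20, with neither called in LGR5hi under median centring (1.15 and 0.86). Fitted to the LGR5lo arrays alone, neither passed in LGR5lo (adjusted p = 0.060 and 0.059), and Mlkl did not pass there under median centring (1.39, adjusted p = 0.056) or normexp (0.65, adjusted p = 0.074). Bid, which links caspase-8 to mitochondria, rose in LGR5hi (1.14 ± 0.28; adjusted p = 0.0108) and had 0.67 in LGR5lo (adjusted p = 0.141). Fadd and Casp8, named after their values were seen, had -0.13 and 0.04 and, without passing the test, 1.05 and 1.08 (adjusted p = 0.101 and 0.0986).

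TRAF adaptor and ubiquitin genes were called higher for 6 of 18 and lower for 1 of 18 in each gate, against 6.18% and 7.28% of all names in LGR5hi and 4.47% and 3.02% in LGR5lo. The list had medians of 0.32 and 0.48, and under median centring 2 and 1 were higher. In LGR5lo the count also fell to 1 when only the LGR5lo arrays were fitted. Tnfaip3, the ubiquitin-editing inhibitor A20, rose by 1.83 ± 0.26 (adjusted p = 0.000158) and 1.56 ± 0.25 (adjusted p = 0.000913). Birc3, a ubiquitin ligase of the TNF receptor complex, rose in LGR5hi (1.60 ± 0.28; adjusted p = 0.00109) and had 0.85 in LGR5lo (adjusted p = 0.0718). Chuk, the kinase IKK alpha, rose by 0.85 ± 0.18 and 0.74 ± 0.17, Traf2 by 0.52 ± 0.14 and 0.45 ± 0.13, and Traf3 in LGR5lo (0.64 ± 0.16; 0.38 in LGR5hi, adjusted p = 0.162). Chuk was not called in either gate under median centring (0.83 and 1.27), and Traf3 not in LGR5lo (1.17). Traf5 fell by 0.72 (± 0.20; adjusted p = 0.0237) and 0.93 (± 0.19; adjusted p = 0.00649), and was not called after quantile normalization (-0.74 and -0.61) or median centring (-0.74 and -0.40). Traf2 was the weakest of these calls, with 0.29 and 0.20, not called, when its probes were averaged.

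Genes of NF-kB subunits and inhibitors were called higher for 6 of 10 in both gates and lower for 0. Of all names 6.18% and 4.47% were called higher, and 7.28% and 3.02% lower. At an unadjusted p under 0.05 also 0 of these genes were lower, where 6449 names in LGR5hi and 6690 in LGR5lo passed either way, with the number lower not computed. The list had medians of 1.003 and 0.86, and the count over the alternatives ran from 3 to 7 in LGR5hi and from 4 to 6 in LGR5lo. Nfkbia, the inhibitor that NF-kB itself induces, had mean levels of 4.77 ± 0.18 and 4.31 ± 0.27 in non-irradiated LGR5hi (n = 4) and LGR5lo (n = 5) cells and 6.93 ± 0.15 and 6.23 ± 0.33 after 12 Gy (n = 4 each). It rose by 2.17 ± 0.19 (adjusted p = 1.23e-06) and 1.92 ± 0.18 (adjusted p = 4.61e-06). Nfkb2 rose by 2.77 ± 0.24 and 1.74 ± 0.23, Relb by 1.14 and 1.28 (0.67 in LGR5lo when its probes were averaged), and Rela by 0.87 and 1.05. The inhibitors Nfkbie and Nfkbib rose by 1.52 and 0.97, and by 0.59 and 0.72. Under median centring Relb, Rela and Nfkbib lost their call in LGR5hi (1.12, 0.85 and 0.57), and Nfkbib in LGR5lo (1.25). Nfkbie lost its LGR5lo call after normexp correction (0.69, adjusted p = 0.079) and when only the LGR5lo arrays were fitted (adjusted p = 0.19).

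As a reference for the scale of the response, all 10 listed p53 target genes were higher in both gates and under every alternative, with medians of 3.92 and 3.64. Phlda3 rose by 5.66 and 6.001, Gdf15 by 5.62 and 5.63, Plk2 by 4.97 and 3.73, Ccng1 by 4.03 and 3.87, and Sesn2 by 2.68 and 2.39. Cdkn1a, the cell cycle inhibitor p21, rose by 4.91 ± 0.31 (adjusted p = 4.11e-08) and 2.90 ± 0.30 (adjusted p = 1.44e-05). Lgr5 itself fell by 1.53 (adjusted p = 0.00188) in LGR5hi and 1.27 (adjusted p = 0.00963) in LGR5lo, not called under median centring (-1.55 and -0.74).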

How the data were processed

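RNA of 17 sorted cell samples was labelled with Cy3 and hybridised to Agilent mouse arrays, 1 sample per array. Per the file headers and the submitters' processing notes, the authors extracted spot values with Agilent Feature Extraction 10.7.3.1, and the column used is the deposited processed signal, an intensity after background subtraction, with probe positions on mm9. A deposited series table holds log2 values of the same arrays. It was the source for non-irradiated LGR5hi replicate 1, whose scanner file had 15329 of 62976 spots readable. The readable part of that file gave background flags, the lowest signal well above background and the array's summary values, but no levels. After removal of a constant of -0.19, all 13422 readable probes of that array were within 0.02 of the rebuilt log2 values. For the other 16 arrays the table and the scanner files also gave the same values within 0.02. Where that array has no readable background flag, flags are counted over the other arrays.

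Each array was expressed as log2 intensity minus its 75th percentile over 55681 non-control probes. Probes well above background on at least 4 of 16 arrays were kept (41444), spots of a probe were averaged, and the brightest kept probe stood for each name. Of the probes, 27235 matched the gene table by accession, which gave 2838 of them a newer symbol. limma 3.58.1 (R 4.3.3) was fitted to all 17 arrays in 4 groups, with Benjamini-Hochberg adjustment over 27771 names and a threshold of 0.05, and no covariate. The fit was tested on simulated data drawn independently for each array. That test does not cover the correlation between same-numbered arrays given below. Arrays numbered 1 and 2 lay on 1 slide, those numbered 3 and 4 on another, and replicate 5 of non-irradiated LGR5lo on a slide of its own. Deviations of same-numbered LGR5hi and LGR5lo arrays from their group means correlated at 0.12 to 0.46 within an arm. Those arrays also share a slide and a sex, so the correlations cannot show whether they come from the same animals. The numbers were taken to pair the gates within an arm, which the labels do not state. The block for those pairs changed only the receptor calls given for Tnfrsf10b and Tnfrsf21.

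The 9 receptor genes and the other lists were chosen with earlier results of these data known. All 9 receptor genes are named. Of each other list, up to 6 genes called in at least 1 irradiation comparison are named, by smallest p, with Lgr5 and Cdkn1a as checks, and for each receptor gene the 3 nearest profiles among names in the gene table, of which 1 is not reported here. Alternatives covered quantile and median scaling, normexp background correction, the filter, averaged or other probes, the series table, sex, slide and replicate blocks, only the groups compared, and each array left out. The 4 or 5 arrays of each group limit the precision of the values.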

Additional observations from a re-analysis of the deposited data

Results flagged for a closer look

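Of 44 groups of levels checked for a value far from the rest, 3 held one, where chance gives about 1 in 20. On the second Eda2r probe, non-irradiated LGR5lo replicate 2 read -3.84, and the next highest array of that group read -6.76, a gap of 0.823 of the range over 5 arrays. The same array had 95.6% of its spots well above background, and it also held the highest reading of the tested Eda2r probe and of Tnfrsf1b in its group. For Tnfrsf10b, irradiated LGR5hi replicate 2 read 3.71 and the other 3 arrays were at most 3.07 (0.979 of the range). In non-irradiated LGR5hi cells replicate 3 had the lowest Tnfrsf1a level, 3.48 against 3.54 for the next (0.968 of a narrow range).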

How the results depend on the processing

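The calls of the receptor genes were compared over 12 alternatives (13 for the gate contrasts) and 17 left-out arrays. In LGR5hi 202 of 205 values of the 7 called genes kept direction and call, with 3 no longer called, and in LGR5lo 167 of 176 values of the 6 called genes, with 9 no longer called, all Eda2r. With single arrays left out the count ran from 6 to 7 in LGR5hi and from 5 to 7 in LGR5lo, and between the gates from 0 to 1 higher and 0 to 1 lower without irradiation and 0 to 1 higher after it. Without irradiation the count higher in LGR5hi, 1 in the report, was 2 after quantile normalization and 0 with median centring, normexp, no filter, the slide block, the replicate block, the replicate block within an arm or only the groups compared, while 1 gene was lower after quantile normalization and with the block within an arm. After 12 Gy it was 2 higher with only the groups compared and 1 lower with the block within an arm. The block on replicate number across arms, where the arrays share only a number (correlations from -0.10 to 0.22), gave 8 and 7 called receptor genes, with Tnfrsf21 at 1.002 and 1.09.

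Several differences turned sign, not all of them near 0 in the main fit. There Cd40 had -0.78 between gates without irradiation and Tnfrsf1b had 0.52 in the contrast between gates. Tnfrsf23 in LGR5lo had 0.98 and was called. Ltbr in LGR5lo was -0.063 after quantile normalization. For the contrast between gates, quantile normalization gave -0.50 for Eda2r, 0.019 for Tnfrsf1a and -0.53 for Tnfrsf21, and median centring gave -0.34 for Eda2r, -0.036 for Tnfrsf1b, -0.36 for Tnfrsf12a, -0.46 for Tnfrsf21 and -0.52 for Ltbr. Normexp gave -0.19 for Tnfrsf21 and -0.29 for Ltbr. The slide block, the replicate block and the block within an arm gave -0.028 for Eda2r, -0.084 for Tnfrsf21 and -0.0044 for Ltbr, and the second probe gave 0.0057 for Tnfrsf1a. Without irradiation, LGR5hi minus LGR5lo was 0.019 for Cd40 after quantile normalization, 0.36 for Tnfrsf1a and 0.12 for Ltbr under median centring, and for Eda2r -0.030 with normexp, -0.26 with averaged probes and -0.74 on the second probe. In LGR5lo Relt was -0.084 with normexp and Tnfrsf23 -0.029 with averaged probes. Left-out arrays moved Relt in LGR5lo from -0.016 to 0.45, and the contrast between gates from -0.64 to 0.63 for Eda2r, -0.054 to 0.38 for Tnfrsf12a, -0.12 to 0.38 for Tnfrsf21 and -0.078 to 0.15 for Ltbr. They moved Eda2r between gates without irradiation from -0.19 to 1.08 and Fas after it from -0.045 to 0.34. The cause was not tested.

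Counts over all names moved too: 3740 called in LGR5hi became 1240 with median centring and 2299 with normexp. In LGR5lo 2080 became 990 with median centring and 788 with only the groups compared. Between gates without irradiation 2651 became 963, 988 and 1156 with median centring, normexp and only the groups compared, and 4192 with a random block, and after 12 Gy 1751 became 672 with median centring, 3114 with only the groups compared and 2893 with a random block. The 11 names of the contrast between gates became 46 with the random block, 19 with the block within an arm, 2 with the slide block or normexp and 0 with median centring. Median centring moved the median of all names by 0.53 in LGR5lo, -0.55 in the contrast between gates and 0.47 between gates without irradiation, and the share of calls higher in LGR5hi after 12 Gy from 35.1% to 14.3%. In the contrast between gates that share was 90.9%, and 76.9% after quantile normalization and 50.0% with normexp. Dim probes limit the values of Eda2r, Cd40 and Tnfsf4.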
